A study of Homo sapiens with 23 samples.

Results

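Keratin genes encode the intermediate filament proteins of epithelial cells. Of 20033 protein-coding genes of GENCODE 44, 55 carried a symbol made of KRT, digits and an optional letter A, B or C, and these 55 were taken as the keratin genes, without the keratin-associated proteins. Chromosome 17 held 28 of them, the type I cluster, and chromosome 12 held 27, the type II cluster together with the type I gene KRT18. Simple epithelial keratins, those of single-layered epithelia, were KRT8, KRT18, KRT19 and KRT20, and the other 51 keratins were set against these 4.

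Histone marks were mapped by chromatin immunoprecipitation and sequencing (ChIP-seq) in SW480, an established line of human colorectal cancer cells grown from a tumour of the colon. Antibodies pulled down chromatin propionylated, butyrylated or acetylated at lysine 18 of histone H3 (H3K18) or lysine 12 of histone H4 (H4K12), and inputs were sheared chromatin without a pull-down. H3K18pr and H4K12pr were mapped in cells given 10 mM sodium propionate (NaPr), both butyryl marks (H3K18bu and H4K12bu) after 1 mM sodium butyrate (NaBu), and H3K18ac and H4K12ac under NaPr, under NaBu and without treatment. That makes 10 groups of 2 libraries, 20 in all, and each condition had 1 input, so 3 inputs stood beside them. All libraries came from 1 tumour line, and the labels do not say whether both libraries of a group came from separate cultures, so the spread between them may be technical.

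Keratins work in pairs. A type I protein, acidic, joins a type II protein, basic or neutral, and the heterodimers assemble into filaments that give epithelial cells their mechanical strength through desmosomes and hemidesmosomes. KRT8 and KRT18 form the primary pair of simple epithelia such as the colon, KRT19 joins KRT8 in many ducts and in the intestine, and KRT20 is a late marker of the differentiated intestinal lining. KRT5 with KRT14 or KRT15 marks the basal layer of stratified epithelia, other members serve the upper layers, and 2 further groups of genes serve the inner root sheath and the shaft of the hair. Acetyl, propionyl and butyryl groups on histone lysines are generally found at active promoters and enhancers.

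A called region is a stretch of the genome at which reads of a library exceeded the local background in the authors' caller. For each gene, the window was its body with 1 kb on both sides, a gene was said to hold a region when its window overlapped one, and coverage is the percent of the window's bases inside regions of that library. The lists differed widely in size. From 8158 to 208823 regions were called per immunoprecipitated library, covering from 0.09% to 3.71% of the genome, and the butyryl lists were short, with 8158 to 22497 regions against 94121 to 165556 in the propionyl lists. Depth estimated from the pileup at the summits was 3.38 to 8.38 fragments per kb in the propionyl libraries, 24.1 to 38.6 in the acetyl libraries under NaPr and 11.2 to 38.5 in untreated cells. Depth is unknown for the NaBu libraries, whose pileups were not whole numbers. The lists of H4K12ac under NaBu held 88658 and 11680 regions, and replicate 1 of H3K18ac under NaPr shared more bases with an untreated H4K12ac library (Jaccard index, shared bases over bases of either, 0.512) than with its own replicate (0.3). Counts of keratins in comparisons that used replicate 1 of H3K18ac NaPr or replicate 2 of H4K12ac NaBu are given with and without both, called the 2 doubted libraries and singled out after their values were seen. Leaving them out leaves 1 library in each of these groups, and a single library lies apart from others more easily than a pair. The libraries also carried 3 run tags. The first tag held the propionyl libraries, the second the acetyl libraries of NaPr and untreated cells, and the third all NaBu libraries. A difference of propionyl from acetyl, or of NaBu from untreated cells, cannot be told apart from the run tag.

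Sequences are shown for the sites that the values below turn on. The KRT8 promoter is the only keratin promoter among 34 in the RefSeq table (GRCh38.p14, 250 bases before and 50 after a start) that was covered in all 20 libraries, KRT5 is the only other covered in 10 or more (16), and KRT20 was covered in 0. KRT3 and KRT75 are keratins of the cornea and of the hair sheath whose promoters were covered mainly in propionyl libraries, in 4 and 6 libraries. Those of KRT18, KRT19, KRT23 and 18 other keratins had no entry. All promoters are printed 5′ to 3′ on the minus strand, and capitals mark TATAAA (the TATA box) or GGGCGG, read here as CCGCCC (the GC box), searched on both strands together with TGAGTCA (AP-1).
KRT8 promoter, chr12:52926420-52926719: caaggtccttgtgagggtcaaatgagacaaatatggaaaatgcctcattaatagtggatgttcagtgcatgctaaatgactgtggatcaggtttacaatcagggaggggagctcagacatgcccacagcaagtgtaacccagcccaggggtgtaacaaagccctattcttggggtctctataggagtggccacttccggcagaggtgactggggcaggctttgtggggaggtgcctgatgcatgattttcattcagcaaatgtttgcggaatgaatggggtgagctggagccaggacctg
KRT5 promoter, chr12:52520345-52520644: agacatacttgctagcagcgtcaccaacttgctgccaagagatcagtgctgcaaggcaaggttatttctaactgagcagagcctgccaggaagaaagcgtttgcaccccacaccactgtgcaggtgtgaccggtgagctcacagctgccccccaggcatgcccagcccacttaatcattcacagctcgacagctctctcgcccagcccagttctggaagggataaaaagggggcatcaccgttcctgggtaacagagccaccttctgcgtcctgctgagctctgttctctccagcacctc
KRT3 promoter, chr12:52796068-52796367: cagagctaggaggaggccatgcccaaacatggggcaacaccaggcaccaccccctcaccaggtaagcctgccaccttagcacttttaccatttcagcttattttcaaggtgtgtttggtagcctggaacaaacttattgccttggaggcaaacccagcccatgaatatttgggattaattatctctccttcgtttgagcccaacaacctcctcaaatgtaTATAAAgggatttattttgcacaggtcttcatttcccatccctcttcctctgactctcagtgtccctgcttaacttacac
KRT75 promoter, chr12:52434322-52434621: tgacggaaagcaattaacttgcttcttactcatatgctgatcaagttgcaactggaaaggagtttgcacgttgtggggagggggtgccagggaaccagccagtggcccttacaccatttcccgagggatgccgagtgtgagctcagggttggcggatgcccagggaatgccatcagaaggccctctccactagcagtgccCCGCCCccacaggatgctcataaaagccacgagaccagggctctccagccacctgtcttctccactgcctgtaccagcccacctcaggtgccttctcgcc
KRT20 promoter, chr17:40885193-40885492: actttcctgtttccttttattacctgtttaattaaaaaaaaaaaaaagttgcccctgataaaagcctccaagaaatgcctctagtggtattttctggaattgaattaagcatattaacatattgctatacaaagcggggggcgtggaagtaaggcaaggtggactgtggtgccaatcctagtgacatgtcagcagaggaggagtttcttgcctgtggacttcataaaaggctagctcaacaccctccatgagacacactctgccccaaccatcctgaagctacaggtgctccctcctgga

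TATAAA stood in 21 of the 34 keratin promoters (61.8%) and in 11.5% of all 35116 promoters of the table, whereas GGGCGG stood in 6 keratin promoters (17.6%) against 45.0% of all. TGAGTCA stood in 0 of 34, against 4.95%. These shares describe letters in 300-base windows and not sites in use. GC content within 1 kb of the start had a median of 50.9% over the 55 keratins and of 56.0% over all genes. Across the 55 keratins it went with mean coverage at Spearman rho 0.608, a description over genes that share clusters, libraries and base composition.

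Next to the starts, windows of 201 bases are shown at 4 further keratins, read from hg38 on the minus strand. Each surrounds the summit of the region with the smallest p within 2000 bp of the gene. Summits whose window touched an annotated untranslated part of a protein-coding gene were passed over. The locations given here therefore follow in part from this rule. None of the motifs searched stood in these windows, so they hold no capitals. The KRT15 window lies in an intron of one KRT15 transcript upstream of the canonical start (covered in 18 of 20 libraries), the KRT13 window lies between genes, at position -1597 from the KRT13 start (13 libraries and 1 input), and those of KRT23 (13 libraries) and KRT34 (7 libraries) lie in coding exons. The last sequence, on the plus strand, is no keratin gene. It lies between KRT78 and KRT8, was covered in 20 of 20 libraries, and was picked after its values were seen because the strongest region of the type II cluster stood there in both libraries of H3K18ac under NaBu.
KRT15 summit window, chr17:41521475-41521675: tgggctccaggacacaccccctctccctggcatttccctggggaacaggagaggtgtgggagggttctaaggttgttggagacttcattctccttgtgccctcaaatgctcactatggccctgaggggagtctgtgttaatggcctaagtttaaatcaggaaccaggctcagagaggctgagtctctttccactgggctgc
KRT13 summit window, chr17:41507109-41507309: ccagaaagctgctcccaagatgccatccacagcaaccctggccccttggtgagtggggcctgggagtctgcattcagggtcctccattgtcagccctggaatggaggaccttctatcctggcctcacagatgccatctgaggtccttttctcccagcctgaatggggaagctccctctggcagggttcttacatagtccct
KRT23 summit window, chr17:40936237-40936437: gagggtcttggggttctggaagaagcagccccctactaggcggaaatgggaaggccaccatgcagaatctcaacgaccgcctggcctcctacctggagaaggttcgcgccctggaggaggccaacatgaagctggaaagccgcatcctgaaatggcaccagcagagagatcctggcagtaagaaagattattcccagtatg
KRT34 summit window, chr17:41379610-41379810: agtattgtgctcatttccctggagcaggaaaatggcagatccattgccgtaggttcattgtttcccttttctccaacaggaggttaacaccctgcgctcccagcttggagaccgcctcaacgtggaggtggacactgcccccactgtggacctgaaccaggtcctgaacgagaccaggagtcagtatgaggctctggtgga
KRT78 to KRT8 site, chr12:52873921-52874121: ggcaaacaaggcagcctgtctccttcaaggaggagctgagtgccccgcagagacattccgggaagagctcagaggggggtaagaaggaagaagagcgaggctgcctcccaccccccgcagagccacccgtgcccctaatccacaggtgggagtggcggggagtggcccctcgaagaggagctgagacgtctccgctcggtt

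KRT19 was the most widely marked keratin. Its mean coverage was 74.3% ± 30.5 (SD, n = 20 libraries), and it ranked first or second among the 55 keratins in 20 of 20 libraries. KRT18 followed with 69.6% ± 32.9 and ranked first or second in 19. KRT5 (38.5% ± 24.0), KRT8 (36.6% ± 17.7), KRT13 (36.6% ± 34.2), KRT80 (32.1% ± 24.0) and KRT15 (30.8% ± 13.9) came next. Neighbours in this order differed by less than their SD, which runs over libraries of unlike marks and treatments. These 7 genes, 12.7% of the keratins, had a mean coverage of 30% or more, against 1.48% of all protein-coding genes. At the other end, 14 keratins (25.5%) stayed under 1%, close to the 26.7% of all genes. The median body was 7098 bp for keratins and 27471 bp for all genes, and the part of gene length in these shares was not tested. Keratins with no region in most libraries and keratins with nearly the whole window covered thus stood in the same clusters. In these bulk libraries a mark present in fewer cells and a weaker mark per cell cannot be told apart.

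**Figure D1:**
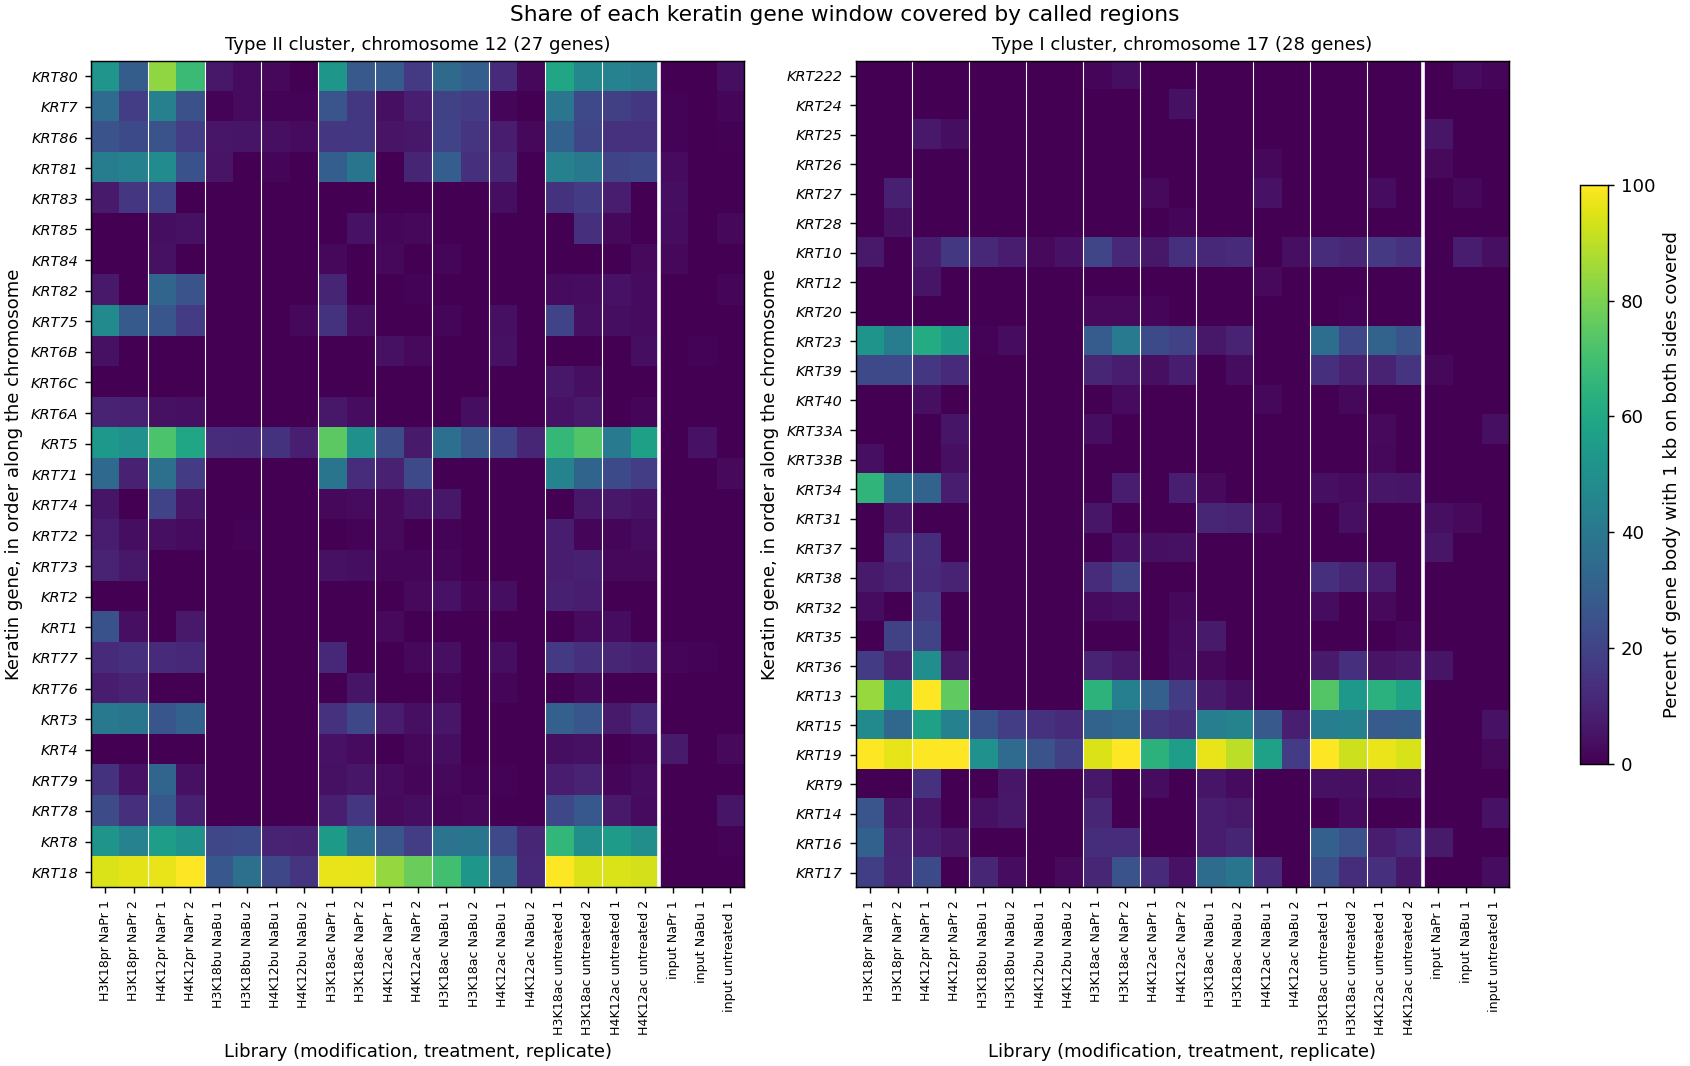
Coverage of each of the 55 keratin gene windows (rows, in order along the chromosome) in each of the 20 immunoprecipitated libraries and 3 inputs (columns, inputs right of the thick line), as percent of the window on a linear colour scale from 0 to 100. KRT18 and KRT19 are bright in nearly all columns except the butyryl ones, KRT8, KRT5 and KRT15 are intermediate throughout, and KRT13 and KRT23 are dark in the NaBu columns.

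KRT19 (chr17:41523617-41528308) was covered from 92.5% to 100% in the 4 propionyl and 4 untreated acetyl libraries. Under NaPr its coverage was 94.8% and 100% at H3K18ac but 64.2% and 56.0% at H4K12ac. Under NaBu, H3K18ac covered 96.6% and 90.2%, and H4K12ac covered 57.3% and 17.7%. The butyryl libraries were lower, with 50.5% and 34.9% at H3K18bu and 25.7% and 18.8% at H4K12bu. The inputs covered 0%, 0% and 2.05%. Every immunoprecipitated library thus lay far above the inputs at KRT19, and the lowest values were those of the shortest lists.

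KRT18 (chr12:52948871-52952906), the type I partner of KRT8, was covered from 93.7% to 100% in the propionyl and untreated libraries. H3K18ac and H4K12ac under NaPr covered 96.8%, 96.2%, 84.3% and 77.1%. Those of NaBu covered 69.9%, 53.0%, 33.1% and 11.5%. Butyryl libraries ranged from 15% to 37.1%, and none of the inputs held a region there. At KRT18 the NaBu libraries, whether butyryl or acetyl, did not overlap those of untreated cells.

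KRT8 (chr12:52897187-52949954) has a long annotated body of 52768 bp, because some transcripts start far upstream, and shares 3084 bp of its window with KRT18. Its coverage ran from 44.2% to 56.1% in the propionyl libraries, from 49.2% to 66.2% in untreated cells, from 18.1% to 54.4% in the acetyl libraries under NaPr, from 10.9% to 38.8% in those under NaBu and from 9.06% to 22.4% in the butyryl ones. Of 3 annotated KRT8 starts, each with 1 kb on both sides, the middle one (position 52926469) was covered by 88.7% ± 12.8 (SD, n = 20) with a lowest value of 64.8%. The start nearest KRT18 (52949842) was covered by 71.7% ± 28.4 and that of the canonical transcript (52905076) by 66.5% ± 29.7. The middle start is that of the printed promoter. These SDs run over libraries of unlike marks and treatments, while the 3 starts were read in the same libraries. They do not measure the difference between starts, which was not tested. The strongest region of the type II cluster lay in the KRT8 window in 12 of 20 libraries.

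KRT20 (chr17:40875889-40885242) was the exception among the simple epithelial keratins. Its window held a region in 4 of 20 libraries, with 2.36% and 2.44% covered at H3K18ac under NaPr, 1.87% in 1 H4K12ac library under NaPr and 0.881% in 1 H3K18ac library of untreated cells. All other libraries stood at 0, inputs included. Its mean of 0.377% placed it at rank 51 of 55. For this gene the label simple epithelial did not go with coverage in these cells.

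**Figure D2:**
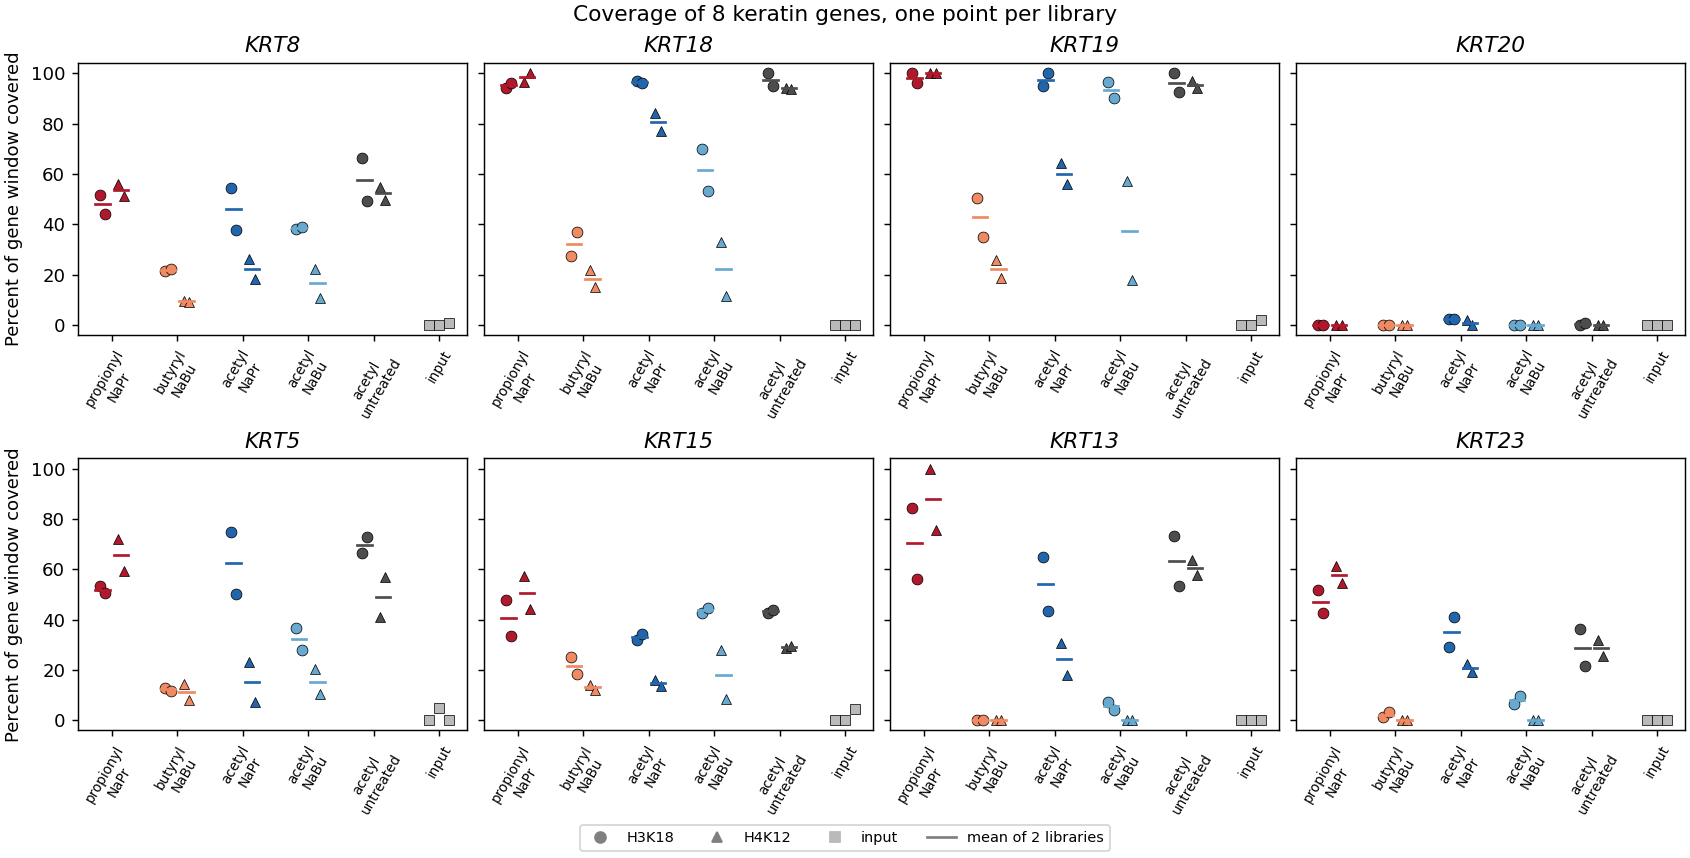
Coverage of the gene window (percent, linear axis) in each library for 4 simple epithelial keratins (upper row) and 4 other keratins (lower row), circles for H3K18, triangles for H4K12, squares for input, with a bar at the mean of the 2 libraries of a group. KRT20 stays at or under 2.44% in all libraries, and KRT13 is at 0 in all 4 butyryl libraries while it is between 53.4% and 73.2% in untreated cells.

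By the share of genes that held a region, 75% or 100% of the simple epithelial keratins held one in each of the 20 libraries, and the gene missing at 75% was KRT20. Among the other 51, this share ran from 9.80% to 72.5%, and over all protein-coding genes from 18.3% to 85.6%. The mean difference between simple and other keratins was 32.3 points (30.3 without the 2 doubted libraries). It was 60.3 points when each list was reduced to its strongest 8158 regions, and 50.3 points within 1 kb of the starts. In the 3 inputs the simple epithelial keratins stood at 0%, 0% and 50% and the others at 29.4%, 13.7% and 27.5%. With only 4 genes, each gene moves the share by 25 points, and no test was made across genes.

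As a family, keratins held a region less often than protein-coding genes at large in all 20 libraries, with 8 to 41 of 55 genes, and the median keratin gene of 7098 bp was shorter than the median protein-coding gene of 27471 bp. Mean coverage went the other way. Averaged over the 55 keratins it was 1.23% to 22.4%, above the average over all genes (0.288% to 13.04%) in 20 of 20 libraries. The part of gene length in either result was not tested. Median coverage did not go one way, with 0% to 12.4% over the keratins and 0% to 6.98% over all genes. The keratin median was lower in replicate 2 of untreated H4K12ac (2.76% against 5.15%). It was higher in replicate 1 of H4K12pr (12.4% against 6.98%). Keratin-associated protein genes, a hair gene family that lies beside the type I keratins, held regions in 0% to 25.5% of 94 genes, and olfactory receptor genes of chromosome 11, another clustered family, in 0% to 20.2% of 178. Present in all 20 libraries were 6 keratins (10.9%, against 9.49% of all genes), namely KRT8, KRT18, KRT19, KRT5, KRT15 and KRT86.

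**Figure D3:**
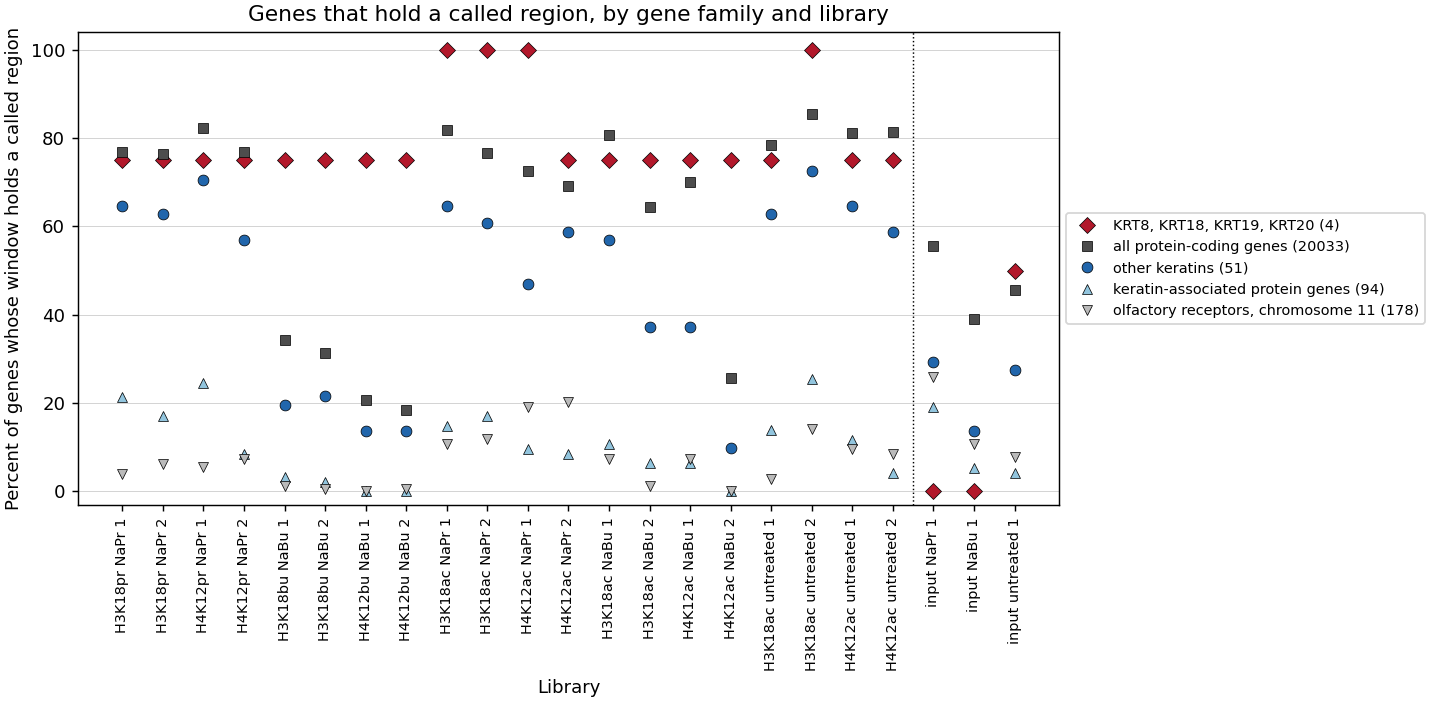
Percent of genes whose window holds a called region (linear axis) in each library, with inputs right of the dotted line, for the 4 simple epithelial keratins, the other 51 keratins, all 20033 protein-coding genes, 94 keratin-associated protein genes and 178 olfactory receptor genes. Diamonds for the simple epithelial keratins are at 75% or 100% in the 20 immunoprecipitated libraries, also where all genes are under 40%.

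Among type I epithelial keratins (14 genes, median of mean coverage 9.13%), KRT13, KRT15, KRT23, KRT17, KRT10 and KRT16 followed KRT19 and KRT18. KRT15 (chr17:41513745-41522529), a basal keratin, held a region in all 20 libraries, with 33.5% to 57.3% covered in the propionyl libraries, 28.8% to 44% in untreated cells, 42.8% and 44.5% at H3K18ac under NaBu and 8.39% to 27.8% at H4K12ac under NaBu and in the butyryl libraries. KRT15 and KRT19 lie next to each other and share 913 bp of window. The longest single region that touched both windows was 12147 bp, in an H3K18ac library of untreated cells.

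KRT13 (chr17:41500981-41505705), a keratin of the upper layers of the mouth and oesophagus, had its highest values in propionyl libraries. These libraries covered 84.4%, 56.1%, 100% and 75.6% of its window. Untreated acetyl libraries covered 53.4% to 73.2%, and those under NaPr 64.8% and 43.3% at H3K18ac and 30.6% and 17.9% at H4K12ac. Under NaBu, H3K18ac covered 7.38% and 3.99%, and both H4K12ac and all 4 butyryl libraries were at 0. KRT13 tied with KRT19 for the highest coverage in 1 library and ranked 23rd at worst, since it was without a region in 6.

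KRT23 (chr17:40922700-40937646), a type I keratin, had its highest values in propionyl and its lowest in NaBu libraries, as KRT13 did. It was covered by 42.6% to 61.4% in the propionyl, 19.1% to 40.9% in the NaPr acetyl and 21.5% to 36.2% in the untreated libraries. NaBu libraries stood at 6.38% and 9.54% (H3K18ac), 1.17% and 3.43% (H3K18bu) and 0 (H4K12ac and H4K12bu). All 8 NaBu libraries lay under all 12 others.

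KRT17 (chr17:41619442-41624842), a keratin of hair follicles and injured skin, was 1 of few members whose H3K18ac coverage was higher under NaBu. It was 35.4% and 38.7% there, 24.5% and 13.1% in untreated cells, and 10.8% and 25.4% under NaPr. H4K12ac covered 12.1% and 0% under NaBu and 13.8% and 6.36% in untreated cells. KRT10, a keratin of differentiating skin, differed from its neighbours in that it held regions in 18 of 20 libraries at a low level (mean 9.61% ± 5.63) while its 300-base promoter was covered in 0. The inputs covered 8.16% (NaBu), 4.23% (untreated) and 0% (NaPr) of the KRT10 window. The NaBu libraries overlapped these values, with 2.72% to 11.7% in butyryl and 0% to 12.0% in acetyl libraries. KRT14, the basal partner of KRT5, had a mean of 3.88% ± 6.35, and KRT16, a keratin of activated skin, 8.64% ± 10.0.

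Type II epithelial keratins (15 genes, median of mean coverage 4.95%) were led by KRT5, KRT8 and KRT80. KRT5 (chr12:52514575-52520530), the basal type II keratin, was covered by 50.6% to 71.8% in the propionyl libraries, by 41.1% to 72.7% in untreated cells, by 74.9%, 50.2%, 23.4% and 7.16% under NaPr (H3K18ac, then H4K12ac), by 10.6% to 36.5% in the NaBu acetyl and by 8.28% to 14.5% in the butyryl libraries. Its start window was covered in all 20 libraries, as was that of KRT18 and of no other keratin (3.64% of the keratins against 3.04% of all genes). Its partner KRT14 held a region in 9 libraries only.

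KRT80 (chr12:52168996-52192014), a keratin of epithelial desmosomes, ranged from 29.5% to 83.2% in propionyl, from 42.5% to 59.1% in untreated and from 0 to 6.62% in butyryl libraries. KRT7 (chr12:52232520-52252186), the simple-type keratin of ducts and glands that the colon largely lacks, was lower, with 18.1% to 43.6%, 16.1% to 39.1% and 0.831% to 2.97%. KRT3 (chr12:52789685-52796117) is a keratin of the cornea. Its coverage was 26.8% to 40.5% in propionyl libraries, 7.03% to 30.6% in untreated cells, 3.93% to 21.5% in NaPr acetyl libraries and at most 6.202% in NaBu libraries, 7 of which were at 0. The keratins of the cornified skin, KRT1 (2.26% ± 5.74) and KRT2 (1.49% ± 2.75), were low on average.

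Hair and inner root sheath keratins did not stand together. All 4 type I genes of the inner root sheath, KRT25 to KRT28, held a region in 5 or fewer libraries (15.6% of all genes did), with means of 0.107% to 0.974%. All 5 type II genes listed with the inner root sheath, KRT71 to KRT75, held one in 10 or more (77.0% of all genes did). KRT71 led them with 9.05% to 36.7% in propionyl, 9.09% to 38.7% in NaPr acetyl and 18% to 44.5% in untreated libraries and 0 in all 8 NaBu libraries. KRT75 (chr12:52424070-52434371) was covered by 47.35%, 28.3%, 26.8% and 17.9% in the propionyl libraries and by 20.02% or less in every other. The type I sheath genes lie in the stretch from KRT222 to KRT28, of which 0 to 1.51% was covered in any immunoprecipitated library.

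Of the 11 type I hair keratins, 3 (27.3%, against 77.0% of all genes) held a region in 10 or more libraries. KRT34 (chr17:41377669-41382306) was covered by 65.6% and 36.1% at H3K18pr, by 31.7% and 8.17% at H4K12pr and by at most 8.35% elsewhere. Its neighbours KRT33A and KRT33B had means of 0.594% and 0.516%. These 2 genes are close paralogs, and reads shared between near-identical copies make their values uncertain. Of the 6 type II hair keratins, KRT81 (mean 21.2% ± 17.4) and KRT86 (14.0% ± 8.60) led. They overlap by 7622 bp of window, and KRT86 overlaps KRT7 by 4887 bp, so that their values are not independent. The strongest region of the type II cluster lay inside the long KRT86 body in 5 libraries, and the canonical KRT86 start, with 1 kb on both sides, held a region in 1 of 20.

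Along the chromosomes, the type II cluster was covered more than the type I cluster. Regions took up 1.56% to 25.3% of the type II span (median 13.3%), which was 4.94 to 22.6 times the share of the genome covered in the same library. For the type I span the values were 0.337% to 11.3% (median 4.91%), or 2.07 to 4.70 times the genome. The inputs covered 0.288% to 0.685% and 0.349% to 1.33%. In the 20 immunoprecipitated libraries, chromosome 17 as a whole was covered by 0.179% to 12.1% (median 3.71%). Chromosome 12 was covered by 0.133% to 4.23% (median 1.71%). The type I span lay under its chromosome in replicate 1 of untreated H4K12ac (5.77% against 8.58%). It lay above it in replicate 1 of H3K18pr (11.2% against 6.32%). Between KRT40, ending at 332 kb of the type I span, and KRT33A, starting at 691 kb, no keratin gene lies. The ranges of the 2 ratios to the genome did not overlap, but the clusters are only 2 loci, and no test was made between them.

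Coverage was patchy within the clusters. In bins of 10 kb, 4 of 98 type I bins and 9 of 79 type II bins held covered bases in all 20 libraries, and 9 and 17 bins had a mean coverage of 20% or more. The KRT13 to KRT19 stretch of 29.3 kb, 3.02% of the type I span, held from 18.3% to 65.5% of its covered bases. In the type II span the stretch of KRT8 and KRT18 (57.7 kb, 7.36% of the span) held 16.2% to 42.0% of covered bases and that from KRT80 to KRT81 (125 kb, 15.9%) 14.6% to 36.3%.

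Not all strong sites lay at keratin genes. A site of 3536 bp at chr12:52870703-52874238, 21610 bp from KRT78 and 22948 bp from KRT8, was covered by 44.4% to 100% in 20 of 20 libraries, and one of 1321 bp at chr17:41404292-41405612, between KRT31 and KRT37, by 16.1% to 100% in 20 of 20. Both were picked after seeing that the strongest region of each cluster lay there in both libraries of H3K18ac under NaBu. The butyryl libraries, low at most keratin windows, covered 50.1% to 87.4% of the first site.

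H3K18 was compared with H4K12 over all 20 libraries, within 5 strata of acyl group and treatment, to ask whether keratins carry the marks of both histones alike. In each stratum both histone sites shared a run tag. An exact two-sided permutation test over libraries within strata was made for all 20033 genes, with Benjamini-Hochberg adjustment over all, and 0 keratins passed at an adjusted p of 0.05 (0% of all genes passed). At an unadjusted p under 0.05, 17 keratins were higher at H3K18 (11.9% of all genes were) and 0 were lower (2.39%). These 17 are 30.9% of the keratins. By role the 17 keratins comprised 6 of 14 type I epithelial, 7 of 15 type II epithelial, 3 of 17 hair and 1 of 9 inner root sheath keratins. The median keratin difference was 2.00 points, against 0.0483 over all genes.

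KRT16 and KRT86 had the smallest p of the keratins in this comparison. KRT16 covered 14.0% at H3K18 and 3.27% at H4K12, a mean difference of 10.7 points with an SD over the 5 strata of 6.80 (exact permutation p = 0.00154, adjusted p = 0.0859). KRT86 covered 17.9% and 10.2%, a difference of 7.74 ± 5.19 (the same exact permutation p and adjusted p). KRT19 covered 85.6% and 63.1% (difference 22.5 ± 24.5, exact p = 0.00617, adjusted p = 0.146), KRT18 covered 76.5% and 62.7% (13.8 ± 16.2, exact p = 0.00489, adjusted p = 0.134) and KRT8 covered 42.4% and 30.8% (11.6 ± 12.3, exact p = 0.0118, adjusted p = 0.2). None of these passed the adjustment over all genes, and divided by the library mean the direction of the 3 simple epithelial genes turned. KRT19 then stood at 22.6 times the library mean at H3K18 and 26.4 at H4K12, KRT18 at 18.9 and 23.3 and KRT8 at 11.2 and 11.9. Without the 2 doubted libraries KRT8 stood at 11.6 and 11.1 and did not turn. Taking each stratum alone, keratins whose libraries lay higher at H3K18 without overlap numbered 9 for propionyl (7.43% of all genes), 10 for butyryl (18.3%), 24 for acetyl under NaPr (36.2%), 18 for acetyl under NaBu (41.1%) and 23 for acetyl in untreated cells (19.7%). Those lower numbered 10 (39.2%), 0 (0.704%), 1 (3.92%), 0 (0.0899%) and 2 (34%). In all 5 strata at once 0 keratins were higher (0.474%) and 0 lower (0%). Without the 2 doubted libraries 0 keratins passed the adjustment (0%), 14 were higher (8.55%) and 0 lower (15.5%) at an unadjusted p under 0.05 in the exact permutation test, and libraries lay apart for 29 higher (41.5%) and 1 lower (24.7%) in acetyl under NaPr and for 18 higher (41.2%) and 7 lower (15.4%) in acetyl under NaBu. In all strata 0 were then higher (0.659%) and 0 lower (0.0948%).

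Both of the following settings moved keratins past the threshold. Within 1 kb of the canonical starts, 5 keratins were higher at H3K18 (9.50% of all genes were), among them KRT8 with 81.0% against 51.9% (difference 29.0 ± 22.8, exact permutation adjusted p = 0.0332), KRT5 with 84.5% against 58.0%, KRT18 with 84.9% against 63.7% and KRT80 with 85.1% against 63.0% (adjusted p = 0.0332 for each, exact permutation). KRT16 passed too (37.8% against 13.3%, exact permutation adjusted p = 0.0447). When coverage was divided by the mean of each library over all genes, KRT16 (2.02 against 0.317 times the library mean) and KRT14 (2.32 against 0.0457) passed, with adjusted p of 0.0369 and 0.0462 in the exact permutation test (2.33% of all genes passed), and no simple epithelial keratin did. Without the 2 doubted libraries 0 keratins passed with start windows (0% of all genes), and 3 passed after division (2.89%), KRT16, KRT23 and KRT78.

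Propionyl and butyryl marks were compared with acetyl marks of the same histone site and treatment, the comparison the study was built on. Over the 4 strata, 0 of the 55 keratins passed the exact permutation test after adjustment (0% of all genes), and at an unadjusted p under 0.05 there were 2 higher (KRT75 with 15.3% against 3.02% and KRT72 with 2.41% against 0.568%; 0.185% of all genes) and 0 lower (2.96%). With a smallest exact permutation p of 0.00154, no gene could pass the adjustment unless at least 619 genes did. The 0 calls therefore do not show that the marks were alike. The strata did not go one way. Under NaPr, propionyl libraries lay above the acetyl libraries without overlap for 15 keratins at H3K18 (11.7% of all genes) and 26 at H4K12 (57.3%). Below them lay 6 (11.6%) and 2 (4.87%). Under NaBu, 0 keratins lay higher in butyryl libraries at H3K18 (0.115%) and 0 at H4K12 (0.11%), while 18 (59.9%) and 2 (17.9%) lay lower. In all 4 strata at once 0 keratins lay lower (0.12%) and 0 higher (0%). Without the 2 doubted libraries 0 keratins passed the adjustment (0%), and at an unadjusted p under 0.05 in the exact permutation test 0 were higher (0.0549%) and KRT17 and KRT2 were lower (3.65%). Libraries then lay apart for 21 higher (43.7%) and 10 lower (15.4%) at H3K18 under NaPr and for 1 higher (0.195%) and 22 lower (69%) at H4K12 under NaBu, and in all 4 strata for 0 lower (0.614%) and 0 higher (0%).

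At both sites under NaPr, 10 keratins lay higher in the propionyl libraries, 18.2% of the keratins against 7.5% of all genes. They were KRT86, KRT81, KRT75, KRT6A, KRT72, KRT77, KRT3, KRT23, KRT39 and KRT36. Without replicate 1 of H3K18ac NaPr they numbered 15 (33.5% of all genes), KRT8 among them. KRT75 covered 30.1% in propionyl and 4.62% in acetyl libraries, a difference of 25.5 points ± 4.40 (SD over the 2 strata). KRT3 covered 34.3% and 11.9% (22.4 ± 0.650), and KRT23 52.5% and 27.9% (24.6 ± 17.7). With 2 strata the smallest possible exact p is 0.0556, so these are counts of libraries apart and not calls. Divided by the library mean, 3 remained apart and higher, KRT75, KRT6A and KRT77 (5.25% of all genes were). KRT10 lay lower, given here without the share of all genes. Without that replicate the same 3 lay higher (8.75%) and 8 lay lower (13%), KRT8, KRT18, KRT19 and KRT10 among them.

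Butyryl against acetyl marks under NaBu lay within 1 run tag. KRT80 (2.91% against 19.54%, difference -16.6 points ± 15.05, SD over the 2 strata) and KRT8 (15.6% against 27.5%, -11.9 ± 6.69) lay lower at both sites, 3.64% of the keratins against 17% of all genes. Without replicate 2 of H4K12ac NaBu, 13 keratins (52.4% of all genes) lay lower in butyryl libraries at both sites, KRT8, KRT18, KRT19 and KRT80 among them. Relative to the mean of its library KRT8 changed side and KRT80 did not (5.58 and 2.49 times the library mean in butyryl against 7.28 and 4.69 in acetyl libraries, at H3K18 and H4K12). KRT19 stood at 57.7 times the library mean in butyryl and 25.0 times in acetyl libraries, KRT18 at 46.8 and 15.7, KRT15 at 32.3 and 11.9 and KRT8 at 27.4 and 11.7. Together with KRT5 and KRT86 these 6 keratins (10.9%) lay higher in butyryl libraries at both sites, against 3.09% of all genes, and without that replicate 7 did (5.24%) while 3 lay lower (20.4%). The butyryl lists were the short ones, and the part of list length in this was not tested.

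NaPr against untreated cells, both in acetyl libraries with 1 run tag, showed few keratins apart. Lower under NaPr at both histone sites were 6, KRT86, KRT81, KRT73, KRT77, KRT15 and KRT16 (10.9%, against 10.7% of all genes), and higher were 0 (0.439%). The count of 6 was 12 with the replicate block and 2 with regions over no input region. At H3K18ac alone 14 were lower (14.5%) and 2 higher (4.66%), and at H4K12ac alone 19 were lower (64.2%) and 1 higher (5.38%). KRT15 was covered by 31.7% and 34.3% at H3K18ac under NaPr and by 42.7% and 44% in untreated cells, and by 15.9% and 13.5% against 28.8% and 29.6% at H4K12ac. KRT16 was covered by 13% and 12.6% against 30.8% and 24.8% at H3K18ac, and it was at 0 in both H4K12ac libraries under NaPr against 7.93% and 11.5%. A share near that of all genes says nothing particular of keratins. Without replicate 1 of H3K18ac NaPr the count was 15 lower (52.9% of all genes) and 1 higher (1.57%), with 27 lower (60.8%) and 10 higher (9.45%) at H3K18ac alone. Divided by the library mean it was 2 lower (KRT77 and KRT16) and 1 higher (KRT10), and without that replicate 2 lower (13%) and 13 higher (18.9%). Counts in this paragraph that stand without a share over all genes cannot be read as particular to keratins.

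NaBu was set against untreated cells in a comparison that shares the untreated libraries with the one above and that cannot be told apart from the run tag. At both sites 21 keratins (38.2%) lay lower under NaBu, against 52.2% of all genes, and 0 lay higher (0.235%). Without replicate 2 of H4K12ac NaBu, 21 lay lower (52.2%) and KRT31 lay higher (1.25%). KRT13 went from a mean of 62.0% in untreated cells to 2.84% (difference of means fell by 59.1 points, SD over the 2 strata 2.16), KRT18 from 95.6% to 41.9%, KRT5 from 59.3% to 23.8%, KRT71 from 29.3% to 0% and KRT23 from 28.8% to 3.98%. The exact permutation p was 0.0556 for each, the smallest the design allows. At H3K18ac alone, KRT17, KRT14 and KRT31 lay higher under NaBu (3.14% of all genes did) and 28 keratins lower (56.1%). At H4K12ac alone 0 lay higher (0.29%) and 26 lower (71%), and without that replicate 9 higher (7.7%) and 26 lower (71%).

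Scaling divided these genes. When coverage was divided by the library mean, KRT19 (25.0 against 10.2 times the mean), KRT18 (15.7 against 10.2), KRT15 (11.9 against 3.91) and KRT86 (3.82 against 2.171) lay higher under NaBu at both sites (8.87% of all genes), and 9 lay lower (17.5%), among them KRT13 (0.609 against 6.59), KRT71 (0 against 3.16) and KRT3 (0.272 against 2.08). Reduced to 8158 regions a list, 3 lay lower (13.1% of all genes), KRT13 (0% against 33.9%), KRT18 (33.0% against 95.6%) and KRT7 (1.68% against 7.62%). Without replicate 2 of H4K12ac NaBu, 6 lay higher (14.7%) and 9 lower (18.2%) after division. KRT13 lay lower under all 3 settings, and KRT18 changed side with the scaling.

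**Figure D4:**
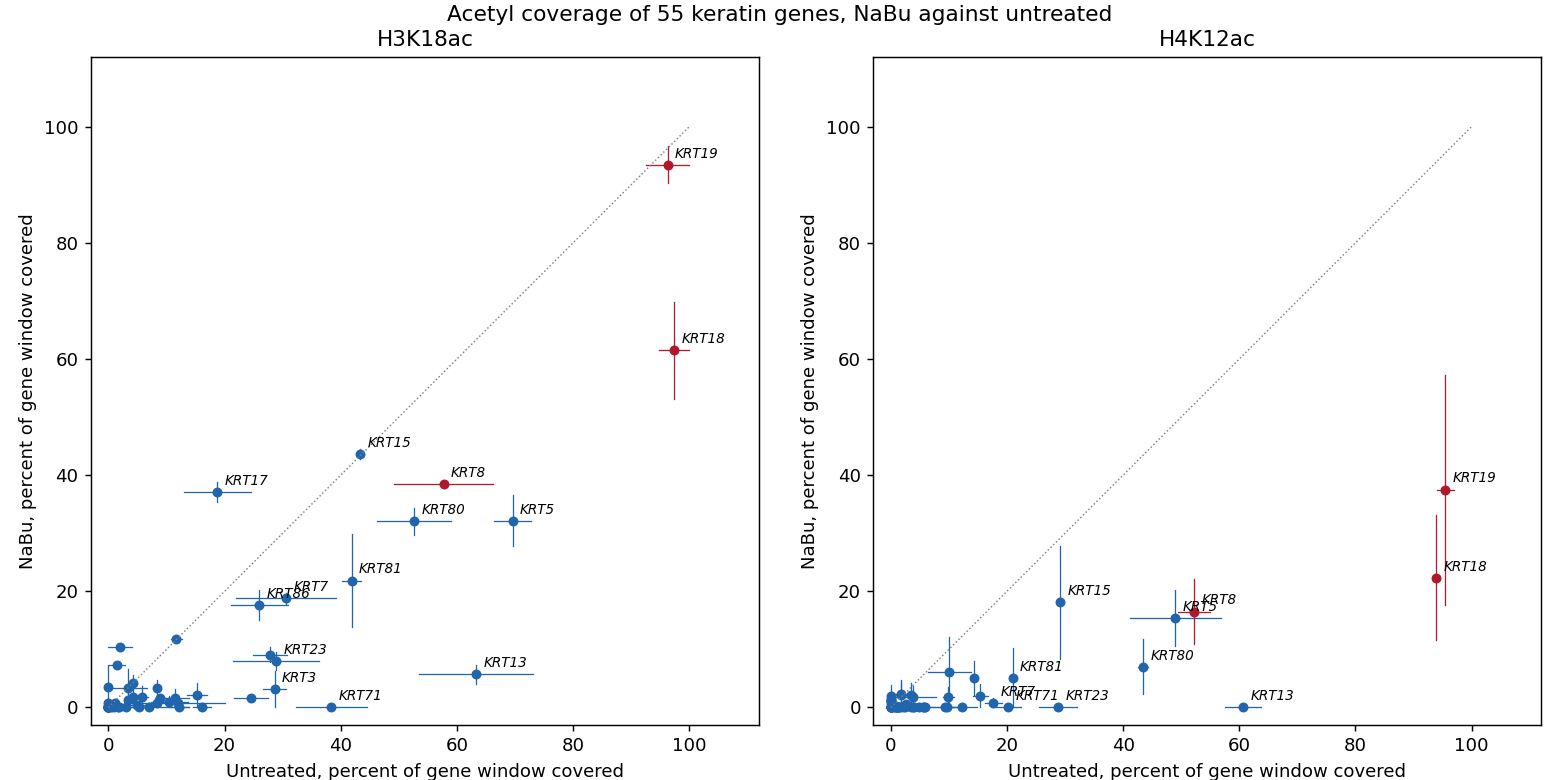
Mean coverage of the 55 keratin windows in acetyl libraries under NaBu (vertical, percent) against untreated cells (horizontal, percent) at H3K18ac (left) and H4K12ac (right), with lines from the lower to the higher of the 2 libraries of each group, simple epithelial keratins in red, others in blue and a dotted line of equal values. Most points lie under the dotted line, KRT13 farthest from it at H3K18ac, while KRT17 lies above it and KRT15 on it at H3K18ac.

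Partners of keratin filaments were read from lists of the filament's attachment sites. All 9 cytolinker and hemidesmosome genes held a region in 10 or more libraries, as did 77.0% of all protein-coding genes, led by ITGB4 (mean coverage 25.9%), the integrin of hemidesmosomes, and PLEC (23.3%), which ties keratins to it. Desmosome genes split. JUP (18.3%), PKP3 (12.54%), PKP1 (12.4%) and PERP (11.5%) were covered in 16 to 20 libraries, and 8 of 14 held a region in 10 or more. DSG1, DSG3, DSG4, DSC1 and DSC3, desmosomal cadherins of stratified epithelia, had means of 0.0241% to 0.147%. The other desmosomal cadherins of the list, DSG2 (1.69%) and DSC2 (0.430%), were low too. Of 10 other intermediate filament genes 9 held a region in 10 or more libraries, and VIM, the mesenchymal filament vimentin, had a mean of 19.8% and held one in 18. None of these 42 genes passed the exact permutation test in either tested comparison after adjustment. The limit set by the smallest p of each test, given above, holds here too. At an unadjusted p under 0.05 in that permutation test, 3 desmosome genes were lower in acyl than in acetyl libraries (2.96% of all genes were), 7 genes of the 4 lists were higher at H3K18 (11.9%) and 1 was lower (2.39%).

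Listed markers of the labelled cell type held regions. All 10 colon epithelial genes held a region in 10 or more libraries (77.0% of all genes did), with summed coverage of 218 to 339 percent points in untreated cells and 21.5 to 85.0 in butyryl libraries, led by CLDN7 (52.3%) and CLDN4 (35.8%), tight junction genes. Of 8 genes of stratified epithelia 2 did, with sums of 0 to 43.2, LORICRIN at 0 in all libraries, TP63, the master regulator of that lineage, at a mean of 0.235% with regions in 12, and SBSN, a gene of the upper layers of skin, at a mean of 7.52% with regions in 13. Fibroblast (2 of 6), blood (3 of 5) and liver or neuron genes (2 of 4) had sums of at most 45.0, 29.4 and 37.6. These sums come from lists of unequal length. The lowest means among the colon epithelial genes were those of CDX1 (3.30%), VIL1 (3.83%) and LGALS4 (4.19%). They lay near the median of 3.15% over all genes. The part of other cell types in the keratin values was not tested.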

How the data were processed

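ChIP-seq libraries of SW480 cells were grouped by GEO's labels. The study aligned reads with Bowtie2 2.3.1 to hg38 and called regions per library with MACS2 2.1.0 at a p of 0.01, removing blacklisted regions. The deposited lists give for each region a fold enrichment (ratio), a −log10 p-value and a −log10 q-value by the authors' caller, and no counts. List names of the NaBu acetyl libraries carry a control tag although their labels say NaBu, and the labels were followed.

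Coverage of each gene of GENCODE 44 (body with 1 kb on both sides) was computed with Python 3.11.15, numpy 2.4.6 and pandas 2.3.3, and sequences were read with pysam 0.24.0. Exact two-sided permutation tests over libraries within strata, for all 20033 genes with Benjamini-Hochberg adjustment, were tested on simulated data. The p-values measure only the spread between these samples. With 2 strata the smallest p was 0.0556, so keratins whose libraries did not overlap in both strata were counted. Alternatives were equal numbers of regions, q under 0.05, regions over no input region, start windows, canonical bodies, division by the library mean, a replicate block and each library left out. Omission of both doubted libraries was added after seeing the data.

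The members and lists were chosen with earlier results of these data known. Named genes were KRT8, KRT18, KRT19, KRT20, KRT7, KRT23, KRT80, KRT17, KRT5 and KRT14, the 10 other keratins with the highest mean coverage, and called genes. Promoters of KRT18, KRT19 and KRT23, also planned, had no entry in the table. Other named keratins and partner genes, the promoters of KRT5, KRT3 and KRT75, the summit windows and the sites between genes were picked after their values were seen. One sequence window is not reported here.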

Additional observations from a re-analysis of the deposited data

Results flagged for a closer look

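For 5 keratins, the propionyl libraries under NaPr all lay above, and the butyryl libraries under NaBu all below, the acetyl libraries of the same site and treatment. The difference between NaPr and NaBu was not tested, and it cannot be told apart from the acyl group and the run tag. At H4K12, the acyl minus acetyl coverage of KRT80 was 52.9 points under NaPr and -5.99 under NaBu, and that of KRT8 was 31.6 and -7.15. At H3K18, KRT86 stood at 8.06 and -11.8, KRT81, whose window overlaps that of KRT86, at 8.57 and -19.3, and KRT23 at 12.1 and -5.66. The pattern depended on the scaling. Divided by the library mean, KRT8 at H4K12 showed the reverse, with propionyl libraries below and butyryl libraries above the acetyl ones. KRT86 at H3K18 then lay higher in butyryl than in acetyl libraries. Without division, the pattern was held by 7.44% of all protein-coding genes at H3K18 (3 keratins) and by 14.2% at H4K12 (2 keratins). The reverse was then held by 4 and 1 genes, with 0 keratins. Without replicate 1 of H3K18ac NaPr and replicate 2 of H4K12ac NaBu the pattern was held by 9 keratins at H3K18 (34% of all genes) and 12 at H4K12 (46%).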

How the results depend on the processing

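Of 333 alternative values for the counts, the share difference and the cluster coverage, 297 stayed within the limits set for each and 36 moved. Counts and coverage cannot change sign, so direction was scored apart for the 20 named keratins. Divided by the library mean, 5 of 20 kept their direction for NaPr against untreated cells and 11 for NaBu against untreated cells. For H3K18 against H4K12 and for acyl against acetyl, 14 of 20 did. At equal numbers of regions these were 11, 14, 16 and 13. For H3K18 against H4K12, 0 keratins were called with whole windows, 5 with start windows, 2 after division by the library mean, and 0 to 2 when each library was left out (2 without replicate 1 of H4K12pr). For NaPr against untreated acetyl libraries, keratins lower without overlap numbered 6, 2 with regions over no input region, 2 (and 1 higher, 3 in all) after division by the library mean, 12 with the replicate block, 15 (and 1 higher, 16 in all) without the doubted libraries, and 6 to 15 lower, 0 to 1 higher and 6 to 16 in all when each library was left out. The highest came without replicate 1 of H3K18ac NaPr. For NaBu against untreated, 21 became 3 at equal numbers of regions, 7 with start windows and 9 lower with 4 higher (13 in all) after division by the library mean. Leaving out each library gave 21 to 24 lower, 0 to 1 higher and 21 to 24 in all, and omitting the doubted libraries gave 1 higher. These counts, given without a share over all genes, show how far a setting moved them and nothing particular of keratins. The share difference of 32.3 points was 60.3 at equal numbers and 50.3 in start windows (30.5 to 33.7 leaving out each library). Mean type I cluster coverage of 4.89% was 2.15% at equal numbers and 3.80% over no input region, and type II coverage of 12.7% was 6.23% at equal numbers. The cause was not tested. Equal numbers keep fewer regions by construction. Replicate numbers share only a number, with correlations of same-numbered deviations from -0.142 to 0.327, and the replicate block otherwise gave 22 in place of 21 for NaBu and left the 0 calls of both tested comparisons at 0. Depth of the NaBu lists is unknown, so for a keratin without a region there an undetected and an absent mark cannot be told apart.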
